A study of Mus musculus with 50 samples.

Results

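The genes described here are 10 markers of the basal and myoepithelial lineage of the mammary gland: Krt5, Krt14, Krt17, Trp63, Serpinb5, Acta2, Myh11, Cnn1, Oxtr and Sox10. They were chosen by symbol, and each is 1 of the 37701 gene rows in the deposited table. The table covers 50 mammary gland tumors of female p53R270H/+WAPCre mice, 10 tumors in each of 5 treatment groups. All groups, vehicle included, carried the mutant p53 allele, which the WAPCre transgene switches on in mammary epithelium. From an age of 8 weeks the mice received vehicle, insulin, glargine, X10 or IGF1 under the skin every other day until a tumor formed. Of these agents, glargine and X10 are insulin analogues, and IGF1 stands for the insulin-like growth factor. The doses are not given in the sources used here. Tumors were taken at 1 cm3, 24 h after the last injection, and the authors picked EMT-like (epithelial to mesenchymal transition) tumors with a latency near the median of their group. Tumors are named here by group and the number in their title, as in X10_105.

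The mammary duct is built of an inner luminal layer and an outer basal layer. Basal cells carry the intermediate filament proteins Krt5, Krt14 and Krt17 and the transcription factor p63 (Trp63), and mature myoepithelial cells add a smooth muscle contractile apparatus with which they expel milk when oxytocin binds its receptor. Since the contractile genes are also active in smooth muscle, pericytes and fibroblast-like cells, and the keratin genes in skin, neither set names a cell type on its own in bulk tissue. In such samples fewer cells of a type and less RNA per cell cannot be told apart.

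Promoters were taken from the RefSeq table of GRCm38.p6, in which 6 of the 10 genes were found (Krt5, Krt14, Serpinb5, Acta2, Cnn1 and Oxtr). Each entry runs from 250 bases before the start site to 50 after it. The promoters of Acta2 and Cnn1 are shown because these contractile genes varied together over the tumors, and that of Krt5 because it alone of the keratin set promoters found held the motif shared by p53 and p63. In the Acta2 promoter (chr19:34255324-34255623, minus strand) the capitals mark matches to the CArG box, the motif bound by serum response factor, with 1 mismatch allowed.
Acta2: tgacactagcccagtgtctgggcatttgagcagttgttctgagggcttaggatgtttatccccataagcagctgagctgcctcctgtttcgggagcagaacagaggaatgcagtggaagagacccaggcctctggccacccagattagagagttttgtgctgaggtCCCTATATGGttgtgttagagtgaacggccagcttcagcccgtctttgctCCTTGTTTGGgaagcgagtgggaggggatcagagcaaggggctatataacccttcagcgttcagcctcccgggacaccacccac
The matches began 84 and 34 bases before the start site. The Cnn1 promoter (chr9:22099003-22099302, plus strand) held no such match in this window.
Cnn1: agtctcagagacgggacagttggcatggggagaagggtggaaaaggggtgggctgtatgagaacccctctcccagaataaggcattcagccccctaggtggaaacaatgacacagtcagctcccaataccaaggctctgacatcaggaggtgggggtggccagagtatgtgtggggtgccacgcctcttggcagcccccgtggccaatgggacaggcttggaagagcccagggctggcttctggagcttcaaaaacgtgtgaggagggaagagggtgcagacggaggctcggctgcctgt
In the Krt5 promoter (chr15:101712856-101713155, minus strand) the capitals mark the 1 match to the p53-family decamer, the motif that p53 and p63 share, 95 bases before the start site. The Krt14 and Serpinb5 entries held no match to it.
Krt5: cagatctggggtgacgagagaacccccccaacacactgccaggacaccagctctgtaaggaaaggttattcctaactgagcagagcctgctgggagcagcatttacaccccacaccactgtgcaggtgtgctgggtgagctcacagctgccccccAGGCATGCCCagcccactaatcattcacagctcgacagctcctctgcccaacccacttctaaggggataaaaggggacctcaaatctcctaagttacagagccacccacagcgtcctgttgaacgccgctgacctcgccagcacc
Each motif was searched in all 32851 promoters of the table; as both are palindromes, the search covers both strands. A CArG box with up to 1 mismatch was present in 9.98% of them, one without mismatch in 1.63%, and the p53-family decamer in 8.36%. The matches are descriptions of letters, not of binding. The Krt14 entry starts 1518 bases from the gene start of GENCODE M21 and is not shown.

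The labelled tissue was checked against its markers. Krt8, a luminal keratin, ranged from 2.39 RPKM (IGF1_158) to 1616 RPKM (vehicle_174) with a median of 173.9 RPKM, and the mesenchymal filament gene Vim from 1094 to 6102 RPKM. Cdh1, the epithelial adhesion protein E-cadherin, had a median of 6.56 RPKM but 35.0 to 106.01 RPKM in 6 tumors (vehicle_174, vehicle_182, vehicle_195, X10_105, X10_111 and glargine_63), and the next tumor had 21.0 RPKM. X10_105, vehicle_174, vehicle_182 and X10_111 were also the 4 tumors highest for Krt17 and Serpinb5, whereas vehicle_194, with 283 RPKM of Krt14, had 3.79 RPKM of Cdh1. RPKM is the number of reads per kilobase of gene scaled to library size, so levels of different genes can be compared. The library size, recovered from the steps of the values, had a median of 40.9 M reads (26.6 to 51.9). None of the 10 genes correlated with library size (r between -0.13 and 0.16 over 50 tumors, smallest adjusted permutation p = 0.935 over the 10 tests).

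Among the keratin genes, Krt14 (chr11:100203162-100207548, minus strand, GRCm38 as all positions here) was the most abundant and differed most between tumors. Its RPKM was 0.787 at the lowest, 58.2 at the median and 2164 at the highest of the 10 vehicle tumors. In the insulin tumors the same 3 values were 0.851, 8.53 and 32.4 RPKM, and in the glargine tumors 1.44, 8.16 and 33.1 RPKM. The X10 tumors had 1.55, 11.1 and 2587 RPKM, and the IGF1 tumors 0.560, 7.91 and 25.6 RPKM. Thus every group contained tumors with under 2 RPKM of Krt14, while levels of at least 100 RPKM were present in 4 vehicle and 2 X10 tumors and in 0 tumors of the other groups. All 5 groups overlapped.

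Krt17 (chr11:100256217-100261029, minus strand), a keratin of basal and stressed epithelium encoded near Krt14 on chromosome 11, followed a similar pattern at a lower level. The vehicle tumors ranged from 0.052 to 411 RPKM with a median of 2.95 RPKM. The medians of the insulin, glargine, X10 and IGF1 tumors were 0.448, 0.822, 0.609 and 0.242 RPKM. At least 10 RPKM was reached by 3 vehicle tumors (11.1, 30.0 and 411 RPKM) and by X10_111 (364 RPKM) and X10_105 (762 RPKM), whereas the highest insulin, glargine and IGF1 tumors had 4.41, 5.11 and 2.52 RPKM.

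Krt5 (chr15:101707070-101712898, minus strand), the type II keratin that pairs with Krt14 in the filaments of normal basal cells, was low in nearly all tumors. X10_105 had 1036 RPKM of Krt5, and the next highest tumor, vehicle_195, had 5.22 RPKM. The median over the 50 tumors was 0.813 RPKM, and Krt5 is listed at 0 in glargine_73 and IGF1_135. The group median was 1.07 RPKM in vehicle, 1.05 in glargine and 1.08 in X10 tumors, against 0.133 in insulin and 0.354 in IGF1 tumors. Krt14 lay above Krt5 in all 50 tumors. The ratio of Krt14 to Krt5, which could be formed in 48 tumors, had a median of 14.3, with 1.45 in glargine_69 and 828.5 in vehicle_174. Most tumors were low in both, since the median of Krt14 over the 50 tumors was 9.10 RPKM. In X10_105, in which both were high, the ratio was 2.50.

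Trp63 (chr16:25683763-25892102, plus strand), the p63 transcription factor that maintains basal epithelium, had a median of 0.434 RPKM and ranged from 0.055 RPKM (X10_95) to 29.1 RPKM (X10_105). The group median was highest in X10 tumors (1.11 RPKM), followed by glargine (0.822), vehicle (0.723), insulin (0.328) and IGF1 tumors (0.219). After X10_105, the highest levels were 9.32 RPKM in vehicle_174 and 9.20 RPKM in X10_118. Serpinb5 (chr1:106861173-106883348, plus strand) encodes maspin, a serpin of myoepithelial cells and other epithelia. It stayed under 1 RPKM in all 10 insulin tumors (0.023 to 0.517 RPKM) and all 10 IGF1 tumors (0.019 to 0.980 RPKM). In the vehicle group it ranged from 0.054 to 35.2 RPKM with 5 tumors of at least 1 RPKM, in the glargine group from 0.105 to 4.14 RPKM with 4, and in the X10 group from 0.062 to 39.4 RPKM with 4. These ranges overlapped between all groups, since each group had tumors under 0.2 RPKM.

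**Figure D1:**
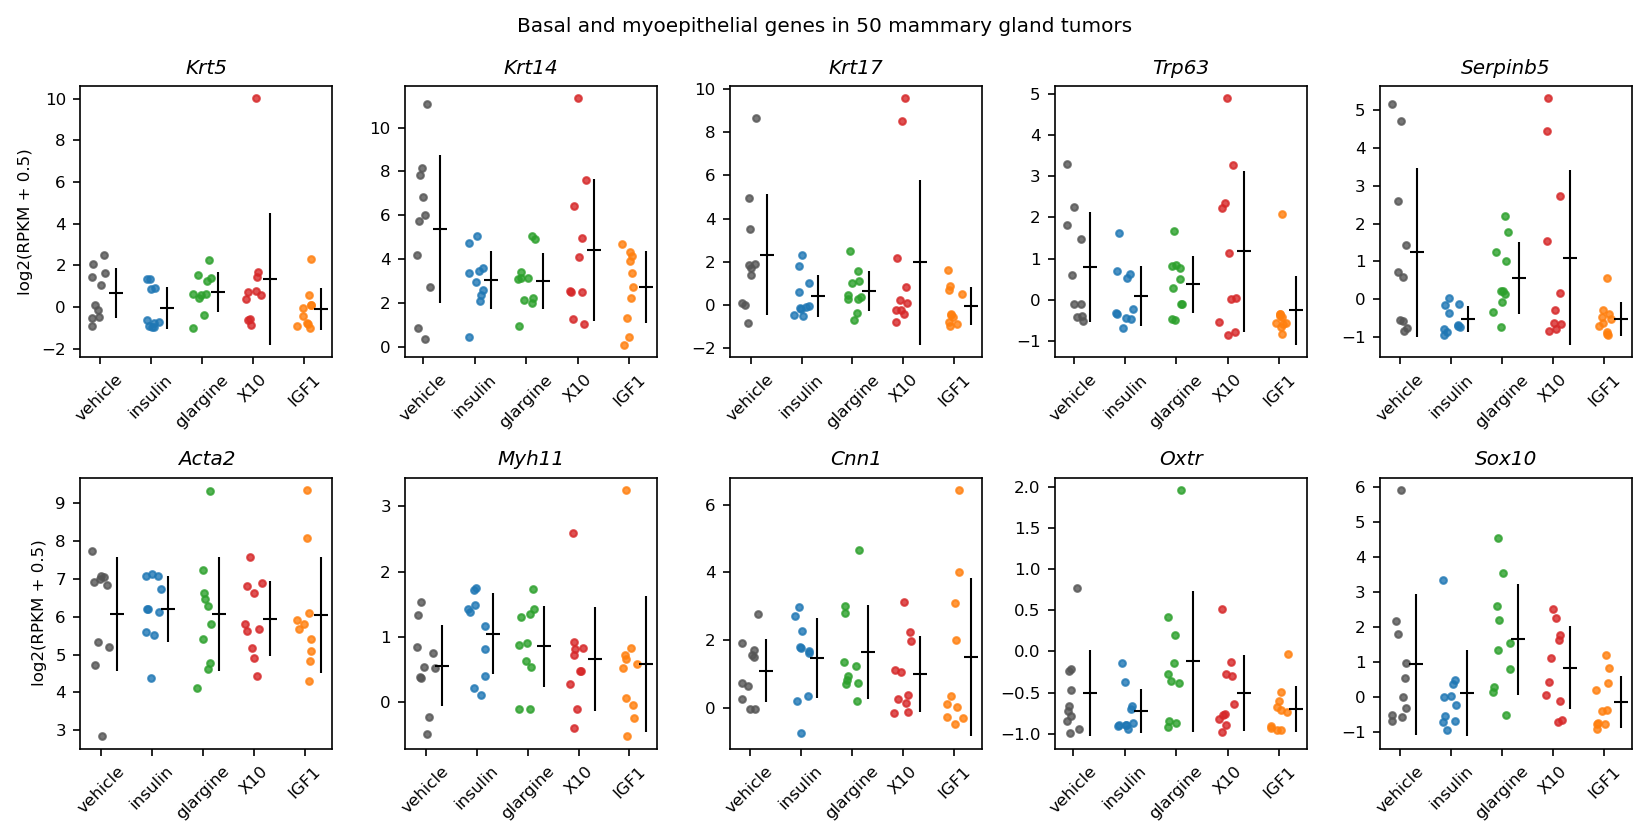
Level of each of the 10 genes as log2(RPKM + 0.5) on the vertical axis, in the 5 treatment groups on the horizontal axis; points are tumors (10 per group), and the black bars beside them give the mean and SD. The keratin genes, Trp63 and Serpinb5 each peak in X10_105, whereas Acta2, Myh11 and Cnn1 peak in IGF1_158, and the groups overlap for every gene.

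The contractile genes were distributed in another way. Acta2 (chr19:34241090-34255590, minus strand), which encodes smooth muscle actin, was the only one of the 10 genes with at least 1 RPKM in every tumor and with a median as high as 64.03 RPKM. It ranged from 6.63 to 214 RPKM in the vehicle group, with a median of 117.7 RPKM. The insulin tumors had 20.3 to 138.7 RPKM (median 73.1), the glargine tumors 16.9 to 643 RPKM (median 65.9), the X10 tumors 21.1 to 190.0 RPKM (median 53.1) and the IGF1 tumors 19.1 to 656 RPKM (median 52.9). The highest levels, in IGF1_158 and glargine_62, lay far above the next one (271 RPKM in IGF1_145).

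Cnn1 (chr9:22099216-22109630, plus strand), encoding the actin-binding protein calponin, was highest in the same 3 tumors, with 86.5, 24.8 and 15.6 RPKM. Over all tumors its median was 1.61 RPKM and its lowest value 0.093 RPKM (insulin_37). Myh11 (chr16:14194535-14291372, minus strand), the smooth muscle myosin heavy chain, had a median of 1.11 RPKM and was highest in IGF1_158 (9.04 RPKM) and X10_105 (5.52 RPKM), while the other 48 tumors lay between 0.193 and 2.84 RPKM. The 5 tumors highest for Acta2 shared 3 with those highest for Cnn1 and 1 with those highest for Krt14. IGF1_158, the highest for both Acta2 and Cnn1, had 0.858 RPKM of Krt14 and 0.575 RPKM of Krt5. IGF1_145, vehicle_195 and X10_105, the other 3 of the 5 tumors highest for Acta2 beside glargine_62, were the 3 highest for Krt5, with 4.49, 5.22 and 1036 RPKM.

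Oxtr (chr6:112473683-112489943, minus strand), the oxytocin receptor, was close to undetected. Its median was 0.115 RPKM, it reached 1 RPKM in glargine_69 (3.40 RPKM) and vehicle_194 (1.20 RPKM) only, and its mean of 0.274 RPKM was under the minimum for testing. Sox10 (chr15:79154908-79165240, minus strand) is a transcription factor of neural crest cells that is also active in mammary progenitor and basal cells. Its median was 0.678 RPKM, and it was highest in vehicle_182 (60.03 RPKM), glargine_63 (22.7 RPKM) and glargine_69 (11.2 RPKM). Group medians were 2.21 RPKM for glargine, 1.25 for X10, 0.721 for vehicle, 0.415 for insulin and 0.262 for IGF1, with overlapping ranges.

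The spread of most of these genes over the 50 tumors was large against that of other genes. The SD of log2(RPKM + 0.5) was 2.50 for Krt14, 2.34 for Krt17, 1.71 for Krt5, 1.65 for Serpinb5, 1.51 for Sox10, 1.44 for Cnn1, 1.27 for Acta2, 1.26 for Trp63, 0.75 for Myh11 and 0.55 for Oxtr. Over all 16733 tested genes the median SD was 0.42 and the 90th percentile 0.91. Differences between the group means made up 22.1% of the variance of Serpinb5, 18.1% of that of Sox10 and 17.0% of that of Krt14, and 6.20% or less of that of Myh11, Cnn1 and Acta2 (0.406% for Acta2). Most of the variation thus lay between tumors of the same group. Such shares lie above 0 for random groups as well, and the test among the 5 groups, given below, called 0 of the 9 genes tested.

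To find out whether the treatments changed these genes, each treatment was compared with vehicle by limma on log2(RPKM + 0.5), over the 16733 genes with a mean of at least 0.5 RPKM. Of the 10 genes 9 passed this minimum, all but Oxtr. A gene was called at a Benjamini-Hochberg adjusted p under 0.05, and fold changes are on the log2(RPKM + 0.5) scale, which understates changes of low genes.

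In the IGF1 tumors the keratin genes lay below vehicle, but 0 of the 9 genes were called, against 0.00598% of all tested genes. At an unadjusted p under 0.05 there were 3 of 9, against 8.84% of all tested genes, and limma voom on recovered reads gave 0 called and 4 at an unadjusted p under 0.05. The 3 were Krt14, with a log2 fold change of -2.65 ± 1.02 (SE, adjusted p = 0.424), Krt17 with -2.37 ± 0.97 (adjusted p = 0.443) and Serpinb5 with -1.77 ± 0.66 (adjusted p = 0.398). For each of these, all 10 IGF1 tumors were below the vehicle mean. That does not separate the groups, since vehicle tumors also lay below it, with lowest values of 0.787, 0.052 and 0.054 RPKM. Without vehicle_174, the highest vehicle tumor for all 3 genes, the log2 fold changes were -2.02, -1.66 and -1.33. Trp63 (-1.05), Sox10 (-1.07) and Krt5 (-0.76) had smaller differences in the same direction, and Acta2 (-0.016, 95% confidence interval -1.16 to 1.13), Myh11 (0.029) and Cnn1 (0.40) were near 0 or above it. The Cnn1 value rested on IGF1_158, without which it was -0.15. The Sox10 value was -0.52 without vehicle_182. The median log2 fold change was -1.05 for the 9 genes and 0.02 for all tested genes.

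For insulin, 0 of the 9 genes were called, against 0.0% of all tested genes, and 2 had an unadjusted p under 0.05, against 11.1% of all tested genes (limma voom gave 0 and 1). These were Serpinb5, with a log2 fold change of -1.78 ± 0.66 (SE, adjusted p = 0.342), and Krt14, with -2.32 ± 1.02 (adjusted p = 0.398). All 10 insulin tumors were below the vehicle mean for both, but vehicle tumors also lay below it, with lowest values of 0.054 and 0.787 RPKM. Krt17 had a log2 fold change of -1.90, and Acta2, Myh11 and Cnn1 had 0.13, 0.49 and 0.37. The Acta2 value was -0.23 without vehicle_161 and 0.33 without insulin_37, and the Cnn1 value was 0.20 without insulin_13 and 0.61 without insulin_37. Without vehicle_174 the values of Serpinb5, Krt14 and Krt17 were -1.35, -1.68 and -1.19, and that of Sox10 moved from -0.83 to -0.27 without vehicle_182.

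Glargine gave 0 called genes of 9, against 0.0% of all tested genes. Krt14 alone had an unadjusted p under 0.05, with a log2 fold change of -2.37 ± 1.02 (SE, adjusted p = 0.789), against 6.23% of all tested genes (limma voom gave 0 and 0). Without vehicle_174 it was -1.73. Sox10 (0.71) and Cnn1 (0.55) were on the other side of vehicle, with 95% confidence intervals of -0.53 to 1.95 and -0.74 to 1.83. The Sox10 value was 1.27 without vehicle_182 and 0.39 without glargine_63, and the Cnn1 value was 0.21 without glargine_62. For X10, 0 genes of 9 were called, against 0.0657% of all tested genes, and 0 had an unadjusted p under 0.05, against 11.0% (limma voom gave 0 and 0). Here a single tumor set the direction of Krt5, whose log2 fold change of 0.68 became -0.29 without X10_105. That of Krt14 moved from -0.95 to -1.71 and that of Krt17 from -0.35 to -1.20 without it. Without vehicle_174 the Krt14 value in X10 was -0.31, and the Krt17 and Serpinb5 values were 0.36 and 0.29, against -0.35 and -0.14 with it, and those of Krt17 and Serpinb5 in glargine tumors moved from -1.68 to -0.97 and from -0.67 to -0.24. Sox10 in X10 tumors moved from -0.11 to 0.45 without vehicle_182. These 4 comparisons share the 10 vehicle tumors, among which vehicle_174, vehicle_182 and vehicle_194 were high in Krt14, so that they are not independent of each other.

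**Figure D2:**
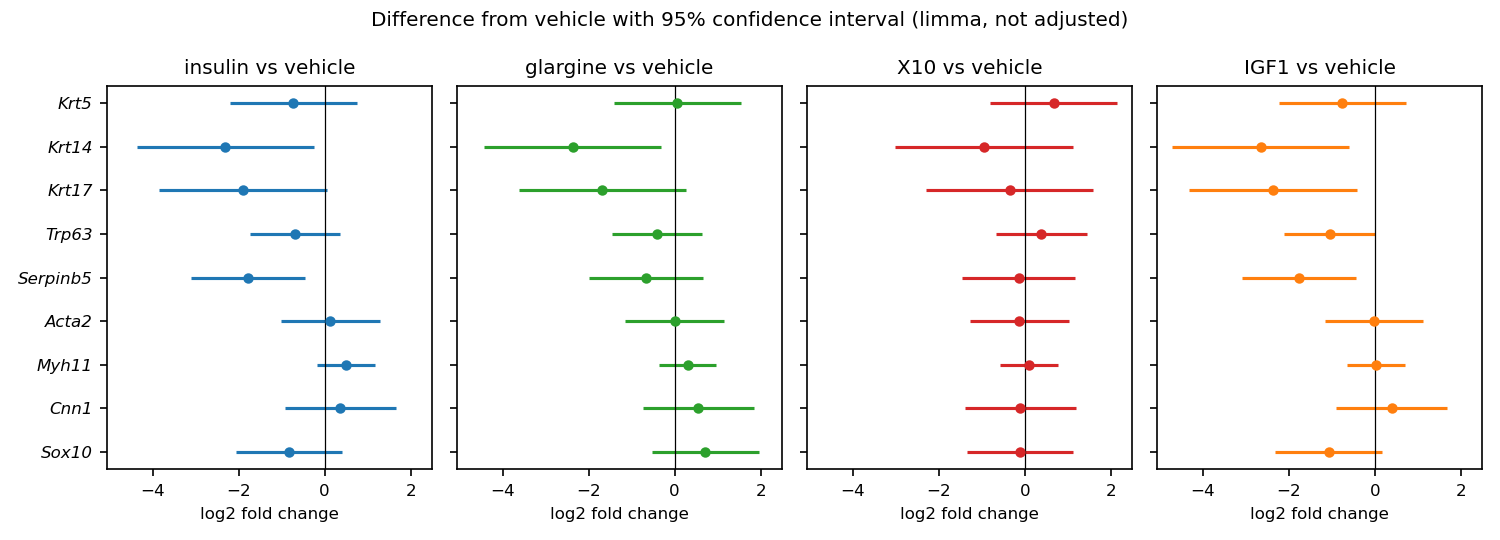
Log2 fold change on the log2(RPKM + 0.5) scale (horizontal axis) of the 9 tested genes (vertical axis) in each treatment group against vehicle; points are limma estimates over 10 tumors a group and bars are 95% confidence intervals without adjustment. Krt14, Krt17 and Serpinb5 lie furthest to the left in the insulin and IGF1 panels, while the intervals of Acta2, Myh11 and Cnn1 include 0 in each panel.

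Glargine and X10 were also compared with insulin. Between glargine and insulin 0 of 9 genes were called, against 0.0% of all tested genes, and Sox10 had an unadjusted p under 0.05, against 3.96% of them (limma voom gave 0 and 2). The log2 fold change of Sox10 was 1.54 ± 0.62 (SE, adjusted p = 0.990), with 9 of 10 glargine tumors above the insulin mean. Insulin_13, with 9.72 RPKM, was above that mean too. Oxtr, tested by permutation since it was under the minimum, differed by 0.61 in the same comparison (two-sided permutation p = 0.0245, adjusted p = 0.172 over the 7 comparisons), and its other adjusted permutation p-values were at least 0.429. Between X10 and insulin 0 of 9 genes were called, against 0.102% of all tested genes, and 2 had an unadjusted p under 0.05, against 11.3% (limma voom gave 0 and 1). These were Serpinb5, with 1.64 ± 0.66 (SE, adjusted p = 0.295), and Trp63, with 1.08 ± 0.52 (adjusted p = 0.419). Without X10_105 their log2 fold changes were 1.17 and 0.67, and those of Krt5 and Krt14 fell from 1.40 to 0.44 and from 1.37 to 0.60.

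The 20 X10 and IGF1 tumors were also compared with the other 30, a grouping that the study uses. Of the 9 genes 0 were called, against 0.155% of all tested genes, and 0 had an unadjusted p under 0.05, against 10.5% (limma voom gave 0 and 0). The largest difference was that of Sox10 (log2 fold change -0.55, 95% confidence interval -1.35 to 0.25, and -0.37 without vehicle_182), and the median over the 9 genes was -0.15. In the test for any difference among the 5 groups 0 of 9 were called, against 0.102% of all tested genes, and 2 had an unadjusted p under 0.05, against 13.1% (limma voom gave 0 and 2). These were Serpinb5 (adjusted p = 0.292) and Sox10 (adjusted p = 0.372).

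The genes were next compared with each other over the 50 tumors, by Pearson's r and Spearman's rho on log2(RPKM + 0.5) with 100000 permutations, adjusted over the 45 pairs. Pearson's r had an adjusted p under 0.05 in 24 pairs and rho in 25. Among the 5 keratin, p63 and maspin genes, called the keratin set here, all 10 pairs passed both, with r between 0.60 and 0.87 and rho between 0.43 and 0.77. The closest pair was Krt17 and Serpinb5 (r = 0.87, rho = 0.68, each with a permutation p of 1e-05, the smallest that the permutations can give, and an adjusted p of 5.62e-05 and 4.09e-05). For Krt14 and Krt17 r was 0.82 and rho 0.71. After removal of the 2 tumors farthest from the median of the first gene, X10_105 and vehicle_174 or vehicle_195, r in the 10 pairs was between 0.41 and 0.78, and after centring within treatment groups it was between 0.60 and 0.86. Within single groups of 10 tumors the r of these pairs was between -0.21 and 0.97. Other genes were often closer to a member than the rest of this set. Ranked by r among the tested genes, Krt17 was at 4 for Krt14 and Serpinb5 at 4 for Krt17. Krt5 was at 252 for Krt14 and at 240 for Serpinb5. The share of all gene pairs that would pass was not computed.

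All 3 pairs of contractile genes passed as well. For Acta2 and Cnn1 r was 0.76 and rho 0.74 (permutation p = 1e-05 for both, adjusted p = 5.62e-05 and 4.09e-05), and r was 0.66 without IGF1_158 and glargine_62. Within each of the 5 treatment groups this r was positive, between 0.64 and 0.92. For Acta2 and Myh11 r was 0.54 and rho 0.46, and for Myh11 and Cnn1 0.45 and 0.34. The last pair rested in part on IGF1_158 and X10_105, without which r was 0.25.

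Between both sets there was little shared variation. Of the 15 pairs of a keratin set gene and a contractile gene 1 passed, with r between -0.10 and 0.47 and a median of 0.05. The exception was Krt5 with Myh11 (r = 0.47, rho = 0.42, adjusted permutation p = 0.00912 and 0.00501), for which r was 0.30 without X10_105 and vehicle_195. For Krt14 and Acta2 r was -0.01 and rho -0.05 (adjusted permutation p = 0.994 and 0.736). Sox10 went with the keratin set in all 5 pairs (r between 0.41 and 0.58, rho between 0.45 and 0.68) and with the contractile genes in 0 of 3 (r between -0.19 and 0.04). By r, Oxtr passed with Krt5 (r = 0.55, rho = 0.79), Trp63 (r = 0.40), Serpinb5 (r = 0.37), Myh11 (r = 0.36) and Sox10 (r = 0.47), though at levels of few reads.

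**Figure D3:**
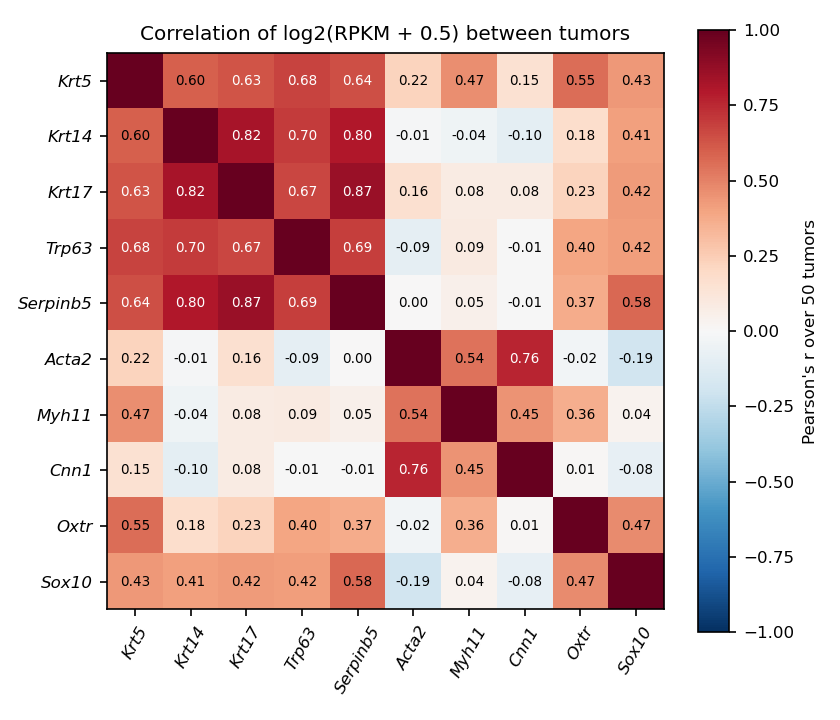
Pearson's r of log2(RPKM + 0.5) over the 50 tumors for each pair of the 10 genes, in colour and as numbers, with the genes on both axes in the order keratin set, contractile genes, Oxtr and Sox10. The keratin set and the contractile genes each form a block of positive values, with r between 0.60 and 0.87 in the first, and the field between them is mostly near 0.

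**Figure D4:**
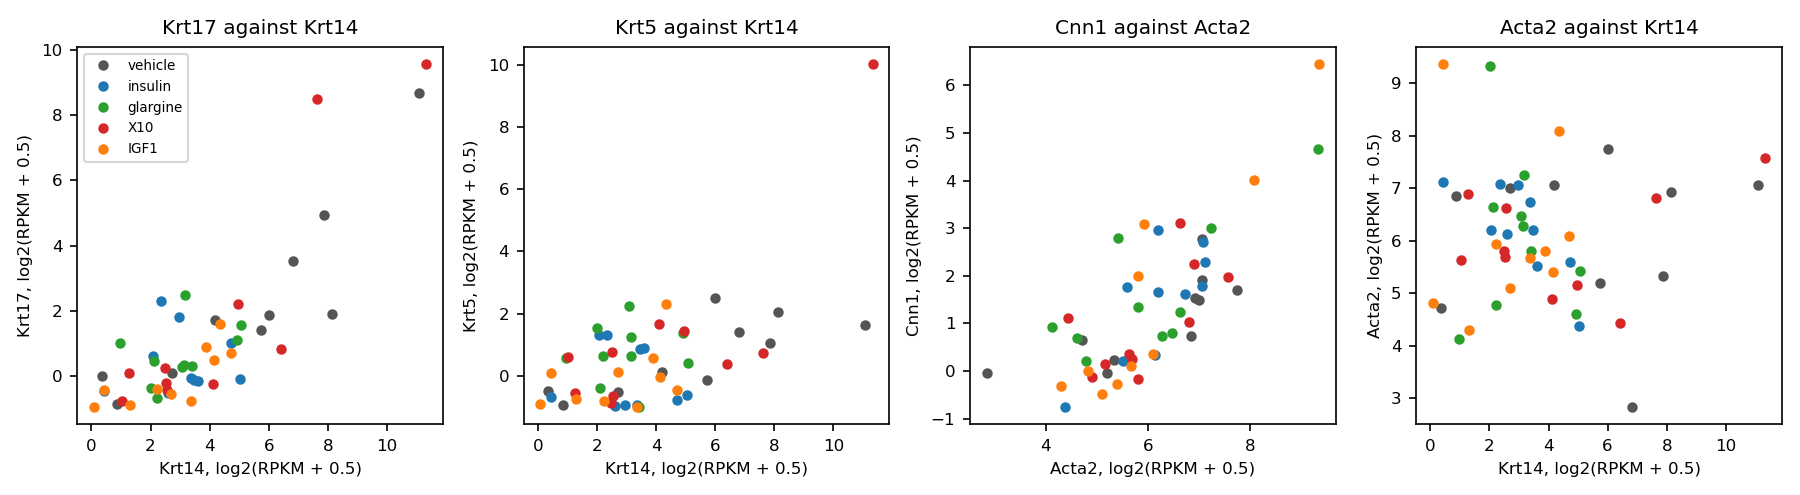
Level of a gene against that of another in the 50 tumors, both axes as log2(RPKM + 0.5) and coloured by treatment group, for Krt17 against Krt14, Krt5 against Krt14, Cnn1 against Acta2 and Acta2 against Krt14. Krt5 is high only in X10_105 (1036 RPKM), and IGF1_158 and glargine_62, highest for Acta2, have 0.858 and 3.53 RPKM of Krt14.

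The genes most like each member over the 50 tumors were listed by Pearson's r among the tested genes, as a description. Krt14 went with the keratins Krt16 (r = 0.89) and Krt6a (0.83). Krt17 went with Krt6b (0.89), Krt6a (0.89) and AI661453 (0.87). Genes of similar sequence, such as Krt6a with Krt6b, or Krt14 with Krt16 and Krt17, may share some reads, which the deposited values do not resolve.

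Serpinb5 was close to Ripk4 (0.94), which acts in epithelial differentiation, and to Esrp1 (0.92), a regulator of epithelial splicing. Trp63 was closest to Dsp (0.80), which encodes the desmosome protein desmoplakin, and to Mmp1b (0.79) and Anxa8 (0.78). Krt5 was closest to Sostdc1 (0.83), Krtdap (0.80) and Calml3 (0.77), all of which peaked in X10_105, and the rho of Krt5 with Krtdap was 0.05. That r therefore rested on few tumors.

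Among the contractile genes, Acta2 was closest to Tagln (0.93), the actin-binding protein transgelin, then Myl9 (0.85), a myosin light chain, and Runx1t1 (0.78). Cnn1 was closest to Myl9 (0.86), Acta2 (0.76) and Apol10b (0.74). Myh11 was closest to Sema3g (0.88), Zfp783 (0.80) and Art3 (0.80). Sox10 was closest to BC006965 (0.88), Prom1 (0.86) and Col9a3 (0.85), each of which was highest in vehicle_182, as Sox10 was.

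A list of 20 other basal genes (further keratins, hemidesmosome and laminin genes, desmosomal cadherins and genes linked to p63) was taken along, of which 18 passed the minimum. Many of these genes vary together and all share the same vehicle tumors, so counts of directions are not counts of independent genes. The sum of the list was 1585 RPKM in vehicle_174, against a vehicle median of 464 RPKM. In the IGF1 tumors 17 of the 18 lay below vehicle and 1 above it, with a median log2 fold change of -0.85, but 0 were called and 5 had an unadjusted p under 0.05, against 8.84% of all tested genes. In the insulin tumors 14 lay below vehicle (median -0.80, 0 called, 6 with an unadjusted p under 0.05, against 11.1% of all tested genes). In the glargine tumors 13 lay below vehicle (median -0.47, 0 called, 3 against 6.23%), and in the X10 tumors 6 (median 0.12, 0 called, 0 against 11.0%). The most abundant genes of this list did not follow Krt14 closely: over the tumors, r with Krt14 was -0.30 for Dst, -0.16 for Egfr and 0.32 for Itga6. For the list as a whole, the r of its mean level with Krt14 was 0.88, with Krt17 0.87 and with Serpinb5 0.89 (each with a permutation p of 1e-05, adjusted over 90 pairs of a gene and a list 4.74e-05).

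A list of 15 other contractile genes, of which 14 were tested, was near vehicle in each treatment group. Of these, 0 were called in any comparison, against 0.0% to 0.155% of all tested genes. At an unadjusted p under 0.05 there were 0 with insulin, glargine and X10 and 1 with IGF1, against 11.1%, 6.23%, 11.0% and 8.84% of all tested genes. The median log2 fold change against vehicle was 0.14 with insulin, 0.025 with glargine, -0.094 with X10 and -0.031 with IGF1. Its mean level had an r of 0.81 with Acta2, 0.77 with Myh11 and 0.68 with Cnn1, and of -0.06 with Krt14. Its most abundant genes were Tpm1 (mean 409 RPKM), Cald1 (368 RPKM) and Myl9 (106.6 RPKM).

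Markers of other cell types moved with several of the 10 genes, and their part in the results was not tested. The mean level of 15 luminal markers had an r of 0.87 with Serpinb5, 0.73 with Krt17, 0.72 with Sox10 and 0.68 with Krt14. Summed over the list, these markers ranged from 34.2 to 5164 RPKM in the vehicle tumors (median 495), from 149 to 622 in the insulin tumors, from 238 to 1029 in the glargine tumors, from 147.03 to 1531 in the X10 tumors and from 125.6 to 761 in the IGF1 tumors. The highest sum was that of vehicle_174. In the IGF1 tumors all 14 tested luminal markers lay below vehicle, with a median log2 fold change of -1.31 (0 called, 7 with an unadjusted p under 0.05, against 8.84% of all tested genes). These 14 share the same vehicle tumors and are not independent of each other. The medians were -0.52 in the insulin tumors (0 called, 3 with an unadjusted p under 0.05, against 11.1%), -0.048 in the glargine tumors (0 and 1, against 6.23%) and -0.20 in the X10 tumors (0 and 0, against 11.0%). In vehicle_194, with 283 RPKM of Krt14, the luminal sum was 209 RPKM, so that a high Krt14 level did not always go with high luminal markers.

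The 12 skin keratinocyte markers had an r of 0.80 with Krt17, 0.76 with Krt14 and 0.75 with Krt5, and summed to 553 RPKM in X10_105 and 264 RPKM in vehicle_174, against group medians of 11.7 to 32.8 RPKM. Lgals7 and Sbsn made up most of these sums. Of the markers of differentiated skin, Krt1, Flg, Krt2 and Lor had highest levels of 0.119, 0.156, 0.077 and 0.896 RPKM. Krt10 was at 0.840 to 2.91 RPKM in every tumor, Krt79 and Krtdap reached 69.1 and 41.8 RPKM in X10_105, and Ivl reached 8.32 RPKM in vehicle_174. X10_105 also had the highest sum of skeletal muscle (2568 RPKM), adipocyte (543 RPKM) and vascular smooth muscle and pericyte markers (313 RPKM) of the X10 tumors.

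Sox10 had an r of 0.55 with the 11 Schwann cell and melanocyte markers. Erbb3 (r = 0.74 with Sox10) and S100b (r = 0.40) reached 12.4 and 8.48 RPKM and Mbp (r = 0.15) 29.2 RPKM, whereas Pmel, Dct and Tyr had highest levels of 1.02, 0.075 and 0.106 RPKM. Against group medians of 8.77 to 11.9 RPKM, the list summed to 22.5, 15.0 and 28.7 RPKM in vehicle_182, glargine_63 and glargine_69, the highest for Sox10. Its highest sum was 44.2 RPKM in vehicle_174, which had 0.501 RPKM of Sox10. In vehicle_182, the highest for Sox10, Pmel was at 0.277 RPKM. For vascular smooth muscle and pericyte markers r was 0.42 with Acta2 and 0.44 with Myh11 (adjusted permutation p = 0.00633 and 0.00546). The rho of these pairs was 0.31 and 0.27 (adjusted permutation p = 0.0719 and 0.128), so they passed by r only. Myh11 also had an r of 0.64 with adipocyte markers (rho = 0.74) and of 0.51 with leukocyte markers (rho = 0.42), and Krt5 and Oxtr had an r of 0.48 and 0.46 with adipocyte markers (rho = 0.48 and 0.62). Of the 90 pairs 36 had an adjusted p under 0.05 by Pearson's r and 33 by rho.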

How the data were processed

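RNA of 50 tumors was analysed, 10 in each of 5 groups. The tumors titled untreated were taken as vehicle, and 1 title with swapped letters as IGF1. Per the labels and the methods of the study, the authors sequenced poly-A RNA on the Ion Proton, aligned reads to GRCm38 with TopHat2 2.0.10 and Bowtie2, counted reads with HTSeq 0.6.1 at its default options, and deposited RPKM values per gene, normalized to library size and gene length. All 50 sample columns were used (unused columns: 0). The DESeq2 analysis of the authors was not repeated. RPKM values of a gene are multiples of a step, from which lengths and reads were recovered for limma voom (at least 96.1% of low values whole per tumor).

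The minimum for testing was a mean of 0.5 RPKM, which 16733 of 37701 genes reached. These were analysed on log2(RPKM + 0.5) by limma (3.58.1, R 4.3.3), with all groups in 1 fit, an intensity trend and Benjamini-Hochberg adjustment. The script was tested on simulated data first. Oxtr and all correlations were tested by permutation (100000 resamples; Python 3.11.15, scipy 1.17.1). Gene positions are from GENCODE M21 (GRCm38). Krt5 overlaps a miRNA gene, and Trp63 an snRNA gene on the other strand and a processed pseudogene. Named were the 10 genes, the 3 tested genes most like each by r, and the 3 most abundant genes of each of 9 marker lists. Some genes under this rule are not reported here. Genes named beside these (Cdh1 and single skin, Schwann cell and melanocyte markers) were chosen after their values were seen. Vim, which is in none of the lists, was also named outside this rule. The 10 genes and the lists were chosen with earlier results of these data known. The titles give each tumor a number, and the labels do not say that tumors of a group came from separate mice, so p-values measure the spread between tumors. Alternatives were pseudocounts of 0.1 and 1, no minimum or 5 RPKM, quantile and upper quartile scaling, no trend, only the groups compared, voom, values without a log and leaving out each tumor. Fold changes without X10_105, IGF1_158 or vehicle_174 were added after seeing the data.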

Additional observations from a re-analysis of the deposited data

Results flagged for a closer look

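In each group of 10 tumors and for each of the 10 genes, the highest and lowest tumor was tested by Dixon's criterion on log2(RPKM + 0.5). Of the 50 pairs of a gene and a group 11 had a tumor apart from the others. The criterion flags about 1 in 20 for independent, normally distributed values, which these are not. The levels are skewed and the genes vary together, so the 11 cannot be set against that rate. All 11 were high tumors, and for genes of low level the added 0.5 leaves low tumors little room to stand apart. X10_105 stood apart for Krt5 (1036 RPKM, next 2.67) and Myh11 (5.52 RPKM, next 1.39). IGF1_145 did so for Krt5 (4.49 RPKM), Trp63 (3.71 RPKM, next 0.292), Serpinb5 (0.98 RPKM, next 0.315) and Oxtr (0.475 RPKM, next 0.210). IGF1_158 stood apart for Myh11 (9.04 RPKM, next 1.28). For Oxtr vehicle_194 (1.20 RPKM, next 0.366) and glargine_69 (3.40 RPKM, next 0.841) were apart, and for Sox10 vehicle_182 (60.03 RPKM, next 4.00) and insulin_13 (9.72 RPKM, next 0.903). IGF1_145 had a skeletal muscle marker sum of 1569 RPKM and the highest luminal marker sum of the IGF1 tumors (761 RPKM). The cause of these values was not tested.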

How the results depend on the processing

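None of the genes tested was called under the 9 other settings where these were run, nor with 1 tumor left out (range 0 to 0 called over 50 fits). The smallest adjusted p of a member was 0.252 under the settings and 0.185 with a tumor left out. Of 523 log2 fold changes under the settings 514 kept their direction. The other 9 belonged to 5 fold changes, all of 0.11 or less in size in the reported fit. With quantile normalization, that of glargine against vehicle was -0.037 for Krt5 and 0.0092 for Acta2. For Acta2 it was 0.011 with upper quartile scaling and 0.0077 with limma voom. For X10 against vehicle, Sox10 was at 0.11 with limma voom. For IGF1 against vehicle, Myh11 was at -0.017 with a pseudocount of 0.1 and with limma voom. For X10 and IGF1 together against the other groups, Trp63 was at -0.19 with a pseudocount of 0.1 and at -0.39 with limma voom. Leaving out each of the 50 tumors in turn changed the sign of 22 of the 63 fold changes at least once, with a reported size of up to 0.68. In a closer look added after seeing the data, leaving out X10_105, IGF1_158 or vehicle_174 turned the direction of 13 fold changes while the other 176 kept it. Over these 3 settings the log2 fold change of X10 against vehicle ranged from -0.29 to 0.78 for Krt5, from -1.20 to 0.36 for Krt17, from -0.024 to 0.67 for Trp63, from -0.61 to 0.29 for Serpinb5 and from -0.11 to 0.10 for Myh11. For IGF1 it ranged from -0.38 to 0.094 for Acta2, from -0.27 to 0.029 for Myh11 and from -0.15 to 0.49 for Cnn1, and for glargine from -0.0038 to 0.107 for Acta2. For X10 and IGF1 together it ranged from -0.30 to 0.22 for Krt5, from -0.59 to 0.069 for Krt17, from -0.17 to 0.13 for Trp63 and from -0.37 to 0.0082 for Serpinb5. Of the 45 pairs of genes 24 had an adjusted p under 0.05 as reported, 24 with a pseudocount of 0.1, 21 with 1 and 13 on RPKM without a log, while with quantile normalization it was 19 of 36 pairs, without Oxtr. The cause was not tested. A minimum of 5 RPKM left 4 of the genes to test. The fit on only the groups compared was not run for the comparison of 20 with 30 tumors or the test among the 5 groups, which use every group. No paired analysis was possible because no number in the titles is shared between groups.

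With 10 tumors per group the precision was limited. For Krt14 the SE of a fold change was 1.02 on the log2 scale. RPKM values from bulk tumors give no cell type, and low values of short genes rest on few reads.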
